A study of Homo sapiens with 6 samples.

Results

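The genes described here encode the nuclear subunits of the respiratory chain and ATP synthase, the machinery of oxidative phosphorylation (OXPHOS), in MiaPaCa-2 cells held in low glucose or in control medium. Members were protein-coding genes whose symbols begin with NDUFA, NDUFB, NDUFC1, NDUFC2, NDUFS or NDUFV (assembly factors of the NDUFAF series left out), UQCR, COX4I, COX5, COX6, COX7, COX8, ATP5F1, ATP5M or ATP5P, plus CYC1, with a mean normalized count of at least 20 over the 6 libraries. Of 60668 genes in the table, 86 matched these symbols and 75 reached the floor. Complex I had 35 members, complex III 10, complex IV 12 and complex V 18. NDUFA4 was placed with complex IV, because its protein is a subunit of cytochrome c oxidase despite the name. The other members were placed by symbol. This puts COX7A2L, whose protein joins complexes III and IV in supercomplexes, in the counts and medians of complex IV.

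Complex I takes electrons from NADH to ubiquinone, complex III passes them on to cytochrome c, and complex IV (cytochrome c oxidase) hands them to oxygen. The proton gradient that these pumps build drives complex V, the ATP synthase. Each of the complexes mixes subunits encoded in the nucleus with a few encoded in mitochondrial DNA, so that both genomes supply its parts, and dedicated assembly factors put them together.

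MiaPaCa-2 is an established human pancreatic carcinoma line. The low-glucose group was cultured for 48 h in 2.5 mM glucose and the control group in 25 mM glucose, with 3 libraries from independent biological replicates in each and no other agent or genetic change in either. The labels' treatment note gives 2.5 mM for all 6 samples, but the titles, the treatment field and the design text set the control group apart. Libraries are called av1, av2 and av3 (control) and av7, av8 and av9 (low glucose), the column names of the table, because the labels tie only av7 and av8 to numbered replicates. The cells are 1 line, so the replicates vary by culture and not by donor. Values are normalized counts, that is, reads on a gene divided by a size factor for the library, and a fold change is low glucose against control on the log2(value + 1) scale, with its standard error (SE).

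Depth ran from 9741183 reads on genes (av1) to 13733477 (av9). The line's defining genes were present in every library, the epithelial keratins KRT8 and KRT18 and the mesenchymal filament VIM, with KRT18 the lowest of these at 13148.5 normalized counts or more. Their levels differed between the groups: KRT8 fell by 1.01 and KRT18 by 0.74 (log2, limma adjusted p = 3.26e-06 and 4.29e-05), and VIM rose by 0.42 (adjusted p = 0.00819). Their part in the results was not tested. CDKN2A, a tumour suppressor gene that this line has lost, had no read, and neither had PTPRC of leukocytes, PRSS1 of acinar cells or INS of beta cells. PECAM1 of endothelium held 0 to 3 reads a library, and the fibroblast collagens were low, with COL1A1 at 2.96 to 13.5 normalized counts over all libraries and COL3A1 higher in control (30.3 to 39.0) than in low glucose (3.85 to 14.4). In bulk RNA, fewer cells with a transcript and less of it per cell cannot be told apart.

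The control libraries stood apart from each other. Among them, av2 gave the lowest value for 69 of the 75 members and av3 the highest for 66. All 3 low-glucose values lay between the lowest and highest control values for 34 members. The coefficient of variation was larger in control than in low glucose for 72 members, with a median of 21.1% against 4.58% in low glucose.

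This spread went with transcript length. OXPHOS transcripts are short, with a median of 756 bases and 45 members under 1000 bases. For the 35 members under 700 bases, the median deviation from the control mean was -0.45 (log2) in av2 and 0.35 in av3. The 202 other protein-coding genes of that length did likewise, at -0.31 in av2 and 0.28 in av3, whereas the 4485 other genes of 4000 bases or more stood at 0.10 and -0.10. Low-glucose libraries lay above the control mean for the other short genes (0.19, 0.18 and 0.07 in av7, av8 and av9) and below it for the long ones (-0.10, -0.09 and -0.09). Results were therefore also computed without av2, without av3 and with a trend on transcript length removed from each library. Of the members under 700 bases 11.4% passed the test described next, against 27.7% of the other protein-coding genes of that length. The part of length in any single difference was not tested.

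**Figure D1:**
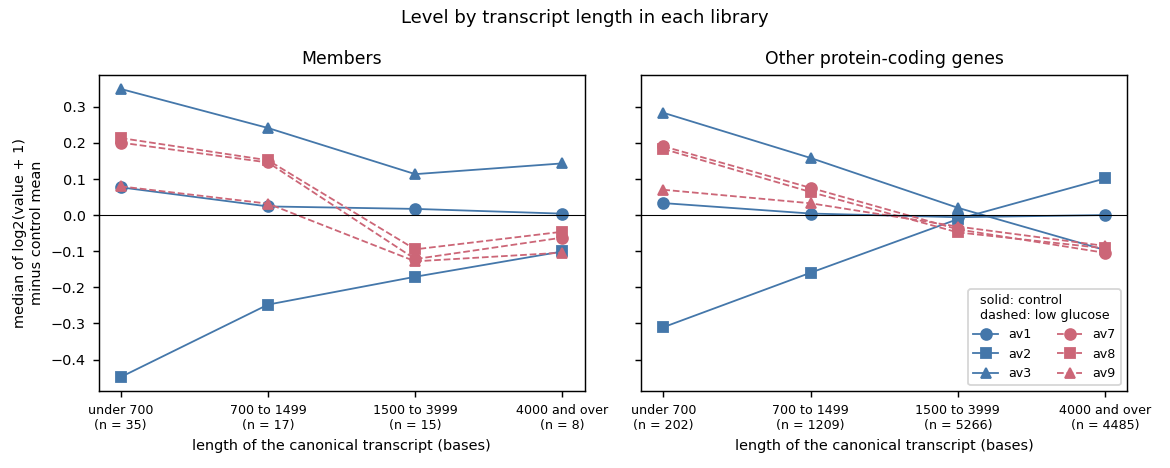
Median deviation (log2) of each library from the control mean, by length of the canonical transcript in bases, for members (left) and for other protein-coding genes (right), with control libraries as solid lines and low-glucose libraries as dashed lines. The control libraries av2 and av3 lie on opposite sides for transcripts under 700 bases, at -0.45 and 0.35 for the members.

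In the main fit, which used all libraries, few of these genes differed between the conditions, and those that did lay in both directions. Without av2 most genes that passed were lower, and without av3 most were higher, as given below. Of the 75 members, 11 had an adjusted p under 0.05, 6 higher and 5 lower (limma, Benjamini-Hochberg adjustment over all 21101 genes tested), which is 14.7% of members against 30.9% of all genes tested (14.7% higher and 16.2% lower). Among the 13769 tested genes with a mean of at least 20, the floor used for members, 42.7% passed, 18.7% higher and 24% lower. The balance between higher and lower calls moved with the scaling. When values were scaled by library size, 16 members were higher and 1 lower (31.2% of all genes passed), and 17 and 2 after quantile normalization (28.6%). Of the 11 calls, 7 remained in the same direction under library size and 8 after quantile normalization. The others, all of them lower, were lost and did not turn to higher calls. With count models on the recovered reads, 8 members were higher and 6 lower in edgeR and 6 and 6 in DESeq2. In edgeR 42.8% of 15322 genes passed, and in DESeq2 19.3% of 28454. The DESeq2 base holds every gene with a read and counts those without an adjusted p as not passing. These 2 shares are therefore not comparable with each other or with that of the main fit. The 2 groups did not overlap for 18 members, 9 higher and 9 lower, against 43.9% of all genes tested (22.1% higher, 21.8% lower) and 55.5% of those with a mean of at least 20 (25% higher, 30.5% lower). Fold changes were above 0 for 46 members, with a median of 0.08 against 0.05 over all genes tested.

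Leaving out av2 raised the count to 28 members (6 higher, 22 lower, with 34% of all genes called). Leaving out av3 raised it to 32 (28 higher, 4 lower, with 33.9% called). In both of these fits the share of members called was above that of all genes, unlike in the main fit. The share for genes that reach the members' floor was not computed without av2 or without av3. In the main fit that share was 42.7%, against 30.9% of all genes. Whether members stood above such genes in these 2 fits was therefore not tested. With the length trend removed, 21 members passed, 5 higher and 16 lower, and 33.9% of all genes. All 11 calls remained, in the same direction, without av2. Without av3, the calls of NDUFC1 and ATP5F1C were lost and 9 remained. Without av1, av7, av8 or av9, the calls that remained were 7, 6, 4 and 6, and with the length trend removed 10 remained, all but that of ATP5PO. Over the main fit and the 17 others tried, NDUFB8 and COX7A2L passed in every one.

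**Figure D2:**
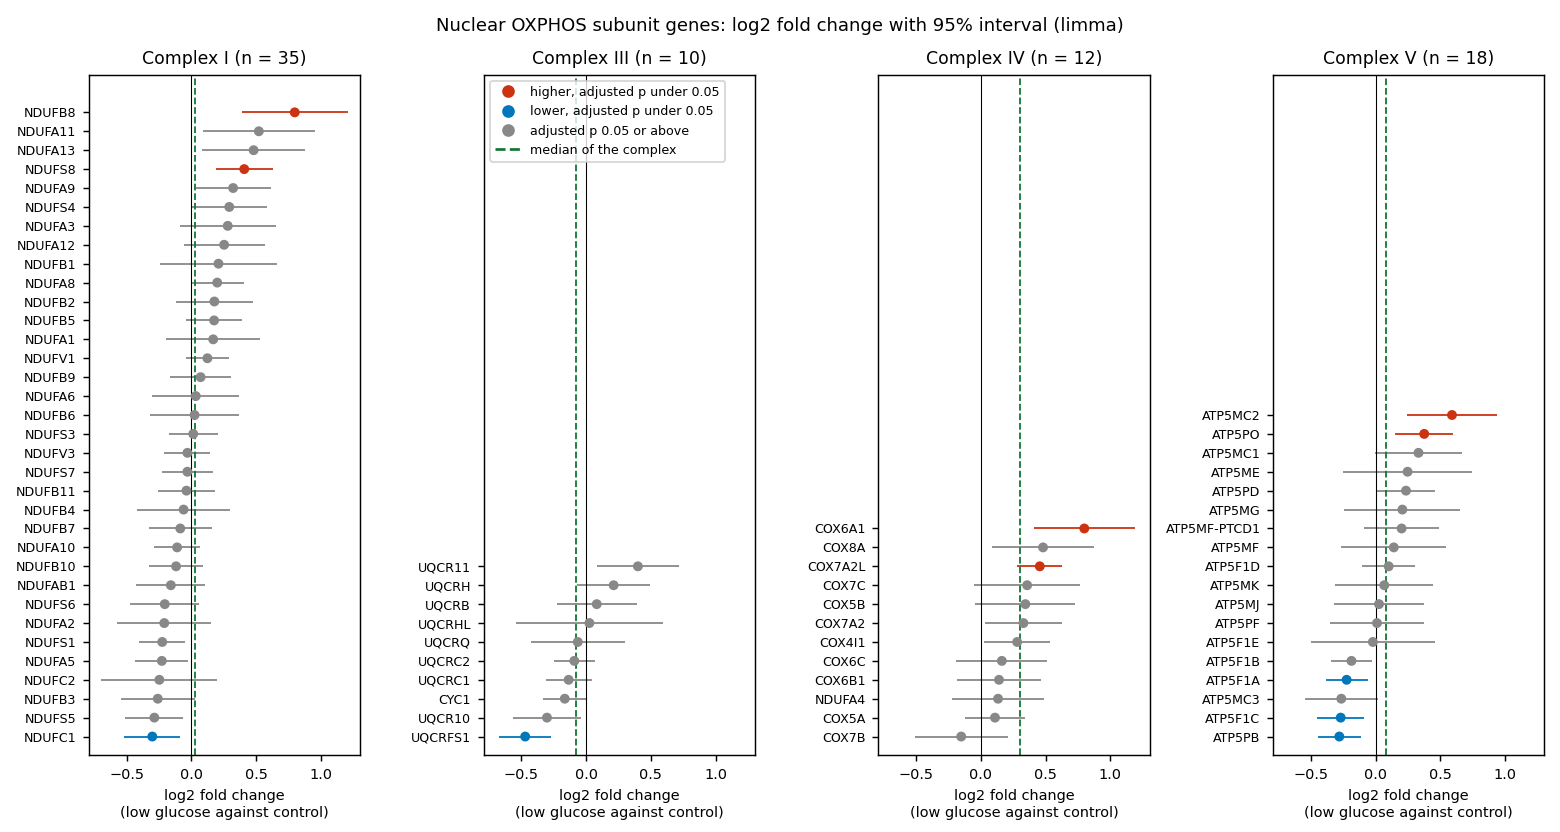
Fold change (log2, low glucose against control) of each member with its 95% interval from limma, in a panel for each complex, with members past an adjusted p of 0.05 in colour and the median of the complex as a dashed line; 1 member of complex I is not drawn. Complex IV members lie to the right, 11 of 12 above 0, whereas complexes I, III and V spread to both sides.

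Complex IV stood highest of the 4 complexes. The median fold change of its members was 0.30, against 0.02 for complex I, -0.08 for complex III and 0.08 for complex V. Fold changes were above 0 for 11 of 12 members of complex IV, 19 of 35 of complex I, 4 of 10 of complex III and 12 of 18 of complex V. Calls were less lopsided, with 2 higher and 0 lower in complex IV, 2 and 1 in complex I, 0 and 1 in complex III, and 2 and 3 in complex V. These are 16.7%, 8.57%, 10% and 27.8% of members, in that order. Every share was under the 30.9% of all genes tested and the 42.7% of those with a mean of at least 20.

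The rank of complex IV held over the fits tried, but not all of these could change the order of the complexes. Changing the filter or the variance model left the medians as they were, and the smaller pseudocount hardly moved them. Library size and TMM factors moved every complex by nearly the same amount. The median of complex IV was the highest in the main fit and in all 17 others, from 0.05 without av2 to 0.46 after quantile normalization. The median over all genes tested was 0.04 and -0.03 in those 2 fits, so without av2 complex IV stood close to genes in general. With the length trend removed it was 0.17, against -0.08 for complex I, -0.17 for complex III and -0.04 for complex V. Complex III was lowest in every fit but that without av2, where its median was -0.17 and that of complex V was -0.19. The sign of the other medians did turn, that of complex I to -0.09 and that of complex V to -0.19 without av2, and that of complex III to 0.03 without av3. Complex III was also above 0 after quantile normalization (0.10) and close to 0 under library size (0.00). No test was run on these medians, since members of a complex are not replicates.

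Library by library, the median deviation of complex IV from the control mean was 0.09, -0.51 and 0.38 in av1, av2 and av3 and 0.31, 0.31 and 0.20 in av7, av8 and av9. The groups overlapped, because av3 was above every low-glucose library. The gap between complexes within a library was tighter. Complex IV minus complex I was 0.07, -0.26 and 0.18 in control and 0.25, 0.22 and 0.27 in low glucose, with no overlap. Complex IV minus complex III was at most 0.11 in control and at least 0.28 in low glucose. Complex IV minus complex V was at most 0.09 in control and at least 0.17 in low glucose. Only complex IV was set against the others, and its median was the highest in these same values. These gaps are therefore a description and not a test.

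**Figure D3:**
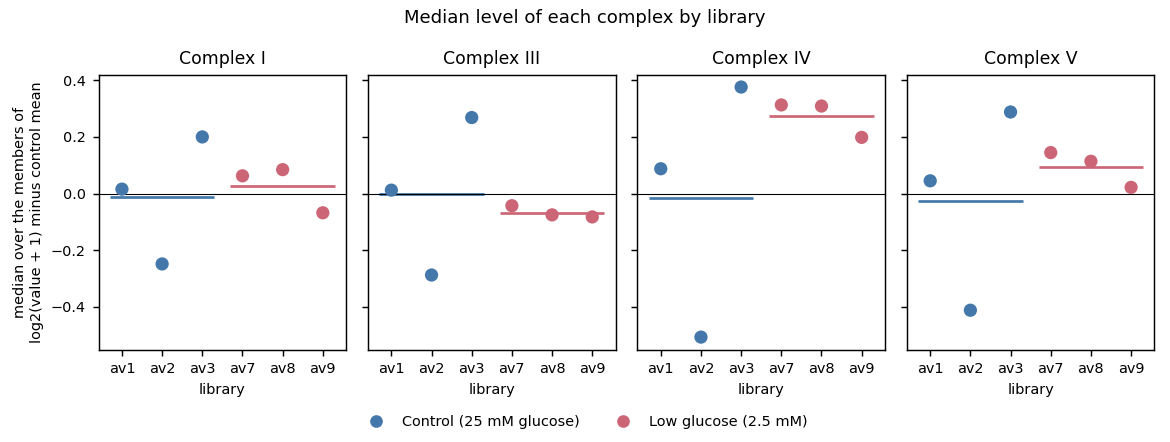
Median over the members of log2(value + 1) minus the control mean, for each complex and library, with the mean of each group as a horizontal line. Low-glucose libraries lie at 0.20 to 0.31 for complex IV and at -0.08 to -0.04 for complex III, and the control libraries spread widely in all 4 panels, from -0.51 to 0.38 for complex IV.

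As a share of all reads on genes, complex IV members took 0.111% in control and 0.137% in low glucose on average, complex I members 0.219% and 0.231%, complex III members 0.121% and 0.120%, and complex V members 0.267% and 0.260%. The summed normalized count of complex IV was 12239 ± 3169 in control and 14346 ± 649 (SD, n = 3 each). All 75 members together summed to 79260.0 ± 11745 and 78060.0 ± 1976, so the whole set differed by less than the spread of the control libraries.

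The promoter of the called member with the largest change in each complex is shown, from 250 bases before to 30 after the start of transcription, because these 4 genes carry the extremes and because OXPHOS promoters are known for sites of the factors NRF1, GABPA (an ETS factor) and YY1. Sequences are from RefSeq on GRCh38.p14: NDUFB8 at chr10:100529842-100530121 (minus strand), UQCRFS1 at chr19:29213122-29213401 (minus), COX6A1 at chr12:120437863-120438142 (plus) and ATP5MC2 at chr12:53676054-53676333 (minus). Each is written 5′ to 3′ along the gene, with capitals for the letters GCGCATG (core of the NRF1 motif), CCGGAAG (ETS) and AAGATGG (YY1) or their reverse complements.
NDUFB8: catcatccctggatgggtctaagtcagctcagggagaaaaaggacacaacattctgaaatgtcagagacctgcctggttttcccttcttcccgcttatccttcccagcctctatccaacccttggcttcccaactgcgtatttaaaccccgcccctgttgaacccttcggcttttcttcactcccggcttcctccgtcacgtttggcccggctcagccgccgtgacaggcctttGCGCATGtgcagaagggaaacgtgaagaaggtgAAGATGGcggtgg
UQCRFS1: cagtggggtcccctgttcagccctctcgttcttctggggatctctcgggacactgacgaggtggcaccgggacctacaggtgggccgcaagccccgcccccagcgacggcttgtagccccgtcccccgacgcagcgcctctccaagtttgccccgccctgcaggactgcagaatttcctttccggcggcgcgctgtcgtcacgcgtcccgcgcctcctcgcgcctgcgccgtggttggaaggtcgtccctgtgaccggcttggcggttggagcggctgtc
COX6A1: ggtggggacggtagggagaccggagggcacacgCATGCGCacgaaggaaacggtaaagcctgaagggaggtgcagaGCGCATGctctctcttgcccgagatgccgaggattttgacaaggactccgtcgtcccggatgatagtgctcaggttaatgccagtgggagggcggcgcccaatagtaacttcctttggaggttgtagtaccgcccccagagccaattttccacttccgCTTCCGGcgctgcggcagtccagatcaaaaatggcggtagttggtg
ATP5MC2: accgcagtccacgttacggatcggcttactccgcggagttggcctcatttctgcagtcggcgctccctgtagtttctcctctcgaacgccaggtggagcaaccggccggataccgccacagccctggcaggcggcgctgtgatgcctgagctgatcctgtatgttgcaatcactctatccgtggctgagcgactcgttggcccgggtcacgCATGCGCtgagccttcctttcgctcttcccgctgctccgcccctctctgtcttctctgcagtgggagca
The NDUFB8 window held the NRF1 letters 16 bases before the start and the YY1 letters 18 bases after it, and the COX6A1 window held the NRF1 letters at 217 and 174 bases and the ETS letters at 16 bases before the start. ATP5MC2 had the NRF1 letters 39 bases before the start, and UQCRFS1 had none of the 3. A promoter was found in the table for 60 of the 75 members. In the full windows, which run to 50 bases after the start, 37 of the 60 held at least 1 of the motifs, or 61.7%, against 24.2% of 15344 protein-coding genes. The NRF1 letters were in 20% of member windows and 5.98% of all, the ETS letters in 31.7% and 14.8%, and the YY1 letters in 26.7% and 6.56%. Both strands were searched, and no 2 matches overlapped in the windows shown. Members that rose, fell or were not called held at least 1 motif in 4 of 6, 3 of 5 and 30 of 49 windows. A match of letters is a description and not a binding site.

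In complex I, the electron-carrying core gave 1 call. NDUFS8 (chr11:68030617-68036644), a core subunit that carries iron-sulfur clusters toward the quinone site, had 853, 693 and 944 normalized counts in control (av1, av2 and av3, in this order throughout) and 1089.9, 1145 and 1045 in low glucose (av7, av8 and av9). The highest control value lay under the lowest low-glucose value. It rose by 0.41 ± 0.10 (SE, limma adjusted p = 0.00746), and the adjusted p was 0.0559 without av8 and 0.0987 without a trend in the variance model.

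NDUFS1, NDUFV1, NDUFS3 and NDUFS7 did not pass. NDUFS1, the largest core subunit and a carrier of iron-sulfur clusters, measured 1627, 1711 and 1405 in control and 1336, 1332 and 1375 in low glucose (-0.23 ± 0.08, adjusted p = 0.0547). All its low-glucose values lay under the control values. NDUFV1, the subunit that binds NADH, read 1517, 1463 and 1677 against 1698, 1724 and 1644 (0.12 ± 0.08). NDUFS3, a structural core subunit, was at 513, 456 and 493 against 493, 473 and 509, and NDUFS7, which holds the last cluster before ubiquinone, at 924, 899 and 1122 against 1009, 929.6 and 932. For both of these the low-glucose values lay within the control range, and their 95% intervals ran from -0.17 to 0.20 and from -0.23 to 0.17.

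Of the 29 accessory subunits of complex I, which surround the core, 1 rose and 1 fell. NDUFB8 (chr10:100523740-100530000), an accessory subunit of the membrane arm, had 50.4, 39.0 and 59.9 in control and 84.7, 84.0 and 89.4 in low glucose. The groups were well apart, and it rose by 0.80 ± 0.19 (limma adjusted p = 0.00562), at 0.64 without av2 and 0.66 with the length trend removed. It rests on 427 reads in all, and its exons share 675 bases on the same strand with the gene ENSG00000255339 and 325 bases on the other strand with HIF1AN, so its reads can be split between overlapping genes.

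NDUFC1 (chr4:139266880-139302551), another membrane-arm subunit, had 334, 327 and 381 in control and 277, 295 and 271 in low glucose. All low-glucose values were the lower ones, and it fell by 0.30 ± 0.10 on the log2 scale (limma adjusted p = 0.0337). It passed in 9 of the 17 other fits, and without any of av1, av3, av7, av8 and av9 the adjusted p was between 0.0637 and 0.124. In addition, 584 of its 2994 exon bases (19.5%) lie opposite NAA15, which itself fell by 0.70 (adjusted p = 0.000217). The counting was not stated to use strand, so reads from that stretch may be mixed.

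Further accessory subunits came near the threshold with less depth or wider spread. NDUFA13 measured 46.0, 43.5 and 53.5 against 65.4, 66.2 and 68.2 without overlap (0.48 ± 0.18, adjusted p = 0.0620), and shares exon sequence with YJEFN3, which rose by 0.69. NDUFA11 measured 143, 71.3 and 117 against 141, 155 and 162, where av1 reached into the low-glucose range. NDUFS5 had the next lowest fold change after NDUFC1 (-0.29 ± 0.10, adjusted p = 0.0507), at 1619.9, 1247 and 1703 against 1285, 1266 and 1166.

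In complex III, only the Rieske protein gene passed. UQCRFS1 (chr19:29205320-29213151) encodes the iron-sulfur subunit that takes electrons from ubiquinol, and it had 1615, 1443 and 1920.5 in control and 1196, 1189 and 1184 in low glucose. The low-glucose libraries were almost level with each other and below every control library. It fell by 0.47 ± 0.09 (limma adjusted p = 0.00167), by 0.57 without av2, 0.36 without av3 and 0.51 with the length trend removed. One alternative ended the call, the fit without a trend in the variance model (adjusted p = 0.0573), and reads on its pseudogenes amounted to 2.33% of its own.

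CYC1, the cytochrome c1 gene and the other electron carrier of the complex encoded in the nucleus, was at 2560.4, 2445 and 2796 in control and 2445, 2330.3 and 2179.9 in low glucose. The lowest control value and the highest low-glucose value round to the same number, and the fold change was -0.16 ± 0.08 (adjusted p = 0.132). With the length trend removed it was -0.30 (adjusted p = 0.00173). It also passed with the GC trend removed and without av2, and in no other fit. Under library size it was -0.08 (limma adjusted p = 0.468), and after quantile normalization 0.02 (limma adjusted p = 0.885). The large core proteins, which hold the matrix side of the complex, overlapped between groups: UQCRC1 at 1790.3, 2194 and 1937 against 1804, 1769 and 1799.5, and UQCRC2 at 1821, 1826 and 1861 against 1624, 1719 and 1833.

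Small subunits of complex III lay on both sides. UQCR11 was at 207, 163 and 244 against 312, 259.8 and 234 (0.40 ± 0.15, adjusted p = 0.0546), and UQCR10 at 410.3, 341 and 493 against 342, 345 and 311 (-0.30 ± 0.12, adjusted p = 0.0745). Both overlapped between groups. UQCRH, the hinge protein near cytochrome c1, was at 2260.0, 1712 and 2839.6 against 2662, 2572 and 2496. UQCRHL, a retrocopy of UQCRH with near-identical sequence, was at 77.4, 34.6 and 74.9 against 60.6, 56.3 and 62.1, and reads may be shared between the pair.

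In complex IV, 2 genes rose and none fell, neither of them among the regulatory subunits COX4I1, COX5A and COX5B. COX6A1 (chr12:120438090-120440737), the widely expressed form of subunit VIa, had 235, 145 and 285 in control and 347, 371 and 399 in low glucose. Every low-glucose library exceeded every control library, and it rose by 0.80 ± 0.18 (limma adjusted p = 0.00389). The rise was 0.52 without av2, 1.01 without av3 and 0.67 with the length trend removed, and the call ended without a trend in the variance model (adjusted p = 0.0912).

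COX7A2L (chr2:42333546-42425088), whose protein joins complexes III and IV in supercomplexes, had 826, 805 and 796 in control and 1171, 1148 and 1015 in low glucose. Its control libraries were nearly level, unlike those of most members, and its canonical transcript is longer than most at 2282 bases. It rose by 0.45 ± 0.08 (limma adjusted p = 0.000672), from 0.39 to 0.60 over the other fits, with no exon shared with another gene.

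The regulatory subunits COX4I1, COX5A and COX5B did not pass. COX4I1 was at 3064, 2429 and 3773 in control and 3732, 3791 and 3554 in low glucose (0.28 ± 0.12, adjusted p = 0.0915). COX5B was at 1495, 946 and 1934 against 1925, 1845 and 1575 (0.34 ± 0.18, adjusted p = 0.167), and COX5A at 800.4, 685 and 952 against 908, 895 and 807 (0.11 ± 0.11). In each, av3 was above at least 2 of the low-glucose libraries while av2 was the lowest of all 6. Without av3, COX4I1 (0.44, adjusted p = 0.00125) and COX5B (0.58, adjusted p = 0.00433) passed, and without av2 neither did. COX7B was the only complex IV member with a fold change under 0, at 985, 609.7 and 1184 against 821, 802 and 789 (-0.15 ± 0.17).

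Isoforms specific to other tissues were barely present in either group. COX4I2, COX6A2, COX7B2 and the ATP synthase gene ATP5MGL had no read in any library, as had the readthrough NDUFC2-KCTD14, so that each was at or under the limit of 3 reads that a count of 0 allows over the 6 libraries (counting error only). COX7A1, the muscle form of COX7A2, had 1.12, 1.11 and 1.07 in control and 2.89, 3.95 and 0.758 in low glucose, a few reads each, while COX7A2 had 675, 482 and 806 against 804, 787 and 819.8. The testis forms were as low, COX6B2 at 0.758 to 2.96 and COX8C at 0 to 3.95, beside 701 to 1259 for COX6B1 and 259 to 555 for COX8A. None of these pairs passed the test.

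NDUFA4 was at 841, 512 and 937 in control and 829, 875 and 733 in low glucose, without a shift beyond its spread (0.13 ± 0.17). Its relative NDUFA4L2, known as a hypoxia-responsive gene, was under the floor at 2.24, 5.57 and 1.07 against 3.85, 9.88 and 9.09, with 1 control library above 1 low-glucose library (1.20 ± 0.57, adjusted p = 0.126).

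In complex V, 2 members were called higher and 3 lower, and only the peripheral stalk held calls in both directions. The 27.8% of members called was near the 30.9% of all genes tested and under the 42.7% at a mean of at least 20. In the F1 head, which makes ATP, ATP5F1A (alpha subunit, chr18:46080248-46104334) had 7024, 6372 and 6739 in control and 5730.2, 5577 and 5934 in low glucose. ATP5F1C (gamma subunit, the rotor shaft, chr10:7788147-7807815) had 1611, 1407 and 1755 against 1318, 1326 and 1300.2. Neither gene overlapped between groups, and they fell by 0.22 ± 0.08 (limma adjusted p = 0.0358) and 0.27 ± 0.09 (adjusted p = 0.0273). Each passed in 9 of the 17 other fits, and both missed the threshold without av1, av7, av8 or av9 (adjusted p from 0.0818 to 0.173), ATP5F1C also without av3 (0.0651). After quantile normalization both were at -0.08 (limma adjusted p = 0.454 for ATP5F1A and 0.560 for ATP5F1C).

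ATP5F1B, the catalytic beta subunit, had 9300.1, 8812 and 9469.8 in control and 8130.3, 7993 and 8117 in low glucose. It was also lower in all low-glucose libraries but missed the threshold (-0.19 ± 0.07, adjusted p = 0.0745). With the length trend removed it passed (-0.28, adjusted p = 0.00204). It also passed with the GC trend removed, without av2 and in DESeq2, and in no other fit. Under library size it was -0.10 (limma adjusted p = 0.310), and after quantile normalization -0.04 (limma adjusted p = 0.732). The delta and epsilon subunits overlapped: ATP5F1D was at 774, 840.4 and 993 against 964, 935 and 883, and ATP5F1E at 1122, 628 and 1539.6 against 1151, 1062 and 849. The 95% interval of ATP5F1E ran from -0.50 to 0.46.

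In the peripheral stalk, which keeps the head from turning, 1 gene rose and 1 fell. ATP5PO (chr21:33903453-33915814), the stalk cap known as OSCP, had 361, 308 and 398 in control and 442, 453 and 482 in low glucose and rose by 0.38 ± 0.10 (limma adjusted p = 0.0136). ATP5PB (subunit b, chr1:111448864-111462773) had 1991, 1885 and 2169.8 against 1603, 1687 and 1684 and fell by 0.28 ± 0.08 (adjusted p = 0.0129). Both sets of values were separate, in opposite directions. With the length trend removed ATP5PO was at 0.23 (adjusted p = 0.0506) and ATP5PB fell by 0.33, while quantile normalization ended the call of ATP5PB (adjusted p = 0.624). Without av8 both missed the threshold (0.0544 for ATP5PO and 0.0526 for ATP5PB), as did ATP5PO without av9 (0.0810) and ATP5PB without av7 (0.0803). ATP5PO shares 492 bases of exon with the gene ENSG00000249209 on the same strand (mean 14.3) and 246 with LINC00649 on the other strand. ATP5PB shares 90 bases on the other strand with WDR77, which fell by 0.37. The stalk subunits ATP5PD and ATP5PF did not pass, at 0.23 ± 0.10 and 0.01 ± 0.17, though without av2 ATP5PF was at -0.27 (adjusted p = 0.0114).

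**Figure D4:**
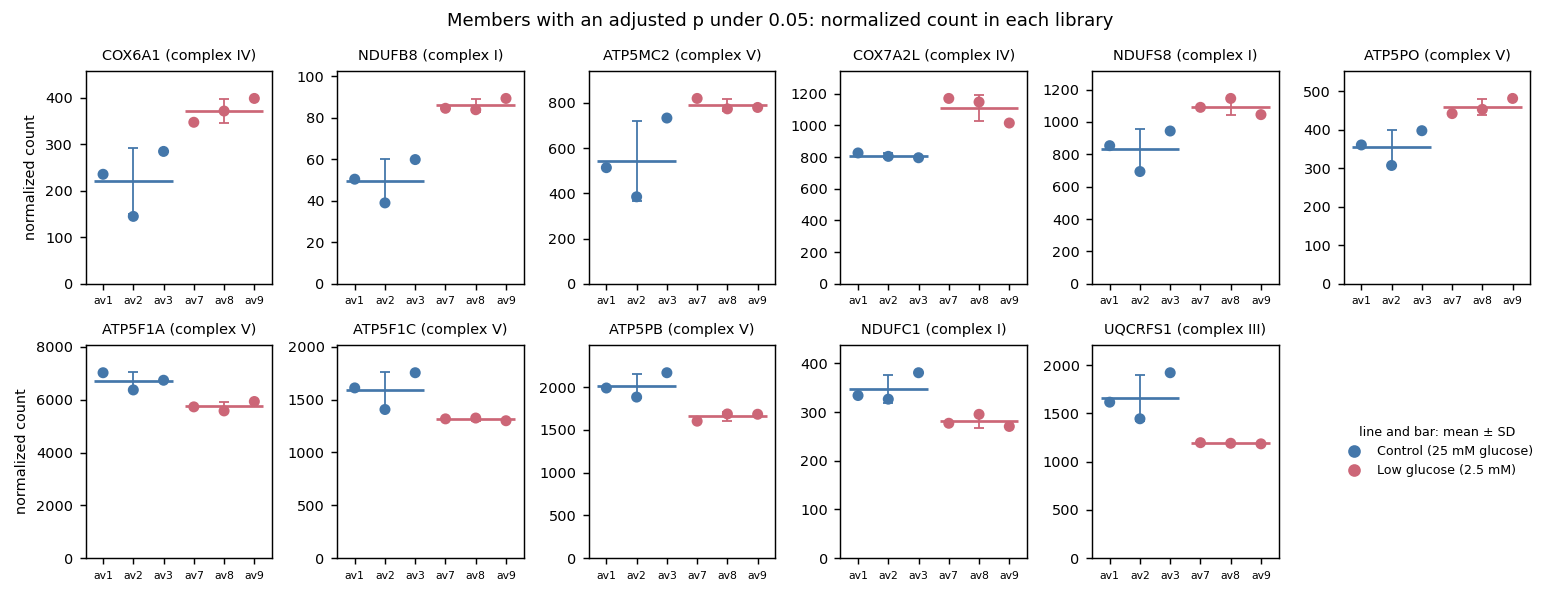
Normalized count in each library for the 11 members with an adjusted p under 0.05 (limma), with the mean ± SD of each group (n = 3) and axes that start at 0. No panel has overlapping groups, and the control points spread more than the low-glucose points in all panels but that of COX7A2L.

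The c ring, the rotor in the membrane, is encoded by 3 genes that make the same mature protein behind different import signals. ATP5MC2 (chr12:53632726-53677408) had 513, 385 and 733 in control and 819.6, 773 and 779.7 in low glucose, with no overlap, and rose by 0.59 ± 0.16 (limma adjusted p = 0.0127). ATP5MC1 was at 553, 378 and 687 against 679, 665 and 633 (0.33 ± 0.16, adjusted p = 0.123), and ATP5MC3 at 2001, 1479 and 2389 against 1756, 1567 and 1484 (-0.26 ± 0.13, adjusted p = 0.149). The last 2 overlapped between groups. The rise of ATP5MC2 was 0.37 without av2 and 0.83 without av3, and its adjusted p was between 0.0535 and 0.0787 without av1, av7, av8 or av9.

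The sum of the 3 genes was 3039 ± 784 in control and 3052 ± 183 in low glucose (SD, n = 3 each, exact permutation p = 1, two-sided), whereas its makeup differed. ATP5MC2 held 16.7%, 17.2% and 19.2% of the summed normalized count in control and 25.2%, 25.7% and 26.9% in low glucose. ATP5MC3 held 65.2%, 66.0% and 62.7% against 53.9%, 52.1% and 51.2%, and ATP5MC1 held 18.0%, 16.9% and 18.0% against 20.9%, 22.1% and 21.9%. All 3 shares were separate between groups, each with an exact permutation p of 0.1, the smallest that 3 against 3 libraries allow (two-sided). The shares are of reads and not per base, so they compare libraries and not the output of the genes, and they were computed after the values had been seen. The ratio of ATP5MC2 to ATP5MC1 was 0.929, 1.02 and 1.07 in control and 1.21, 1.16 and 1.23 in low glucose.

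**Figure D5:**
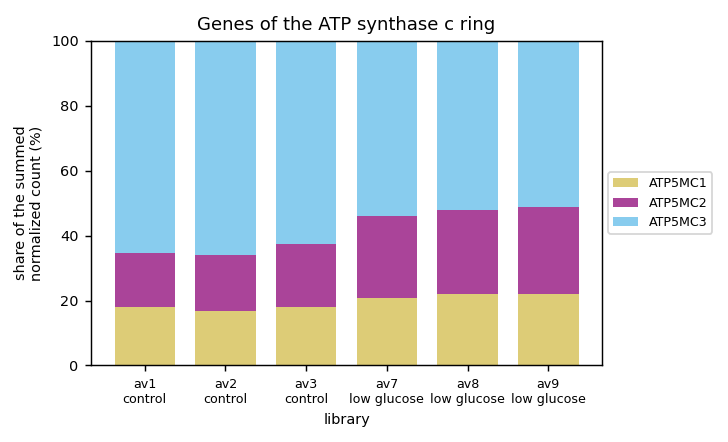
Share (%) of the summed normalized count of the c ring genes ATP5MC1, ATP5MC2 and ATP5MC3 in each library, as stacked bars. The control bars give ATP5MC3 62.7% to 66.0% and ATP5MC2 16.7% to 19.2%, and the low-glucose bars give them 51.2% to 53.9% and 25.2% to 26.9%.

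The 6 other membrane-part subunits of complex V did not pass in either direction, with fold changes from 0.03 to 0.25. One of them, ATP5MF-PTCD1, is a readthrough gene that shares 87.9% of its exon bases with same-strand neighbours and cannot be counted apart from them.

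Of the 11 genes under the floor, NDUFV2 and NDUFA7 encode regular subunits of complex I. NDUFV2, which carries an iron-sulfur cluster beside NDUFV1, was at 8.97, 24.5 and 13.9 against 8.66, 7.90 and 14.4, on 79 reads in all, while its pseudogene held 185. NDUFA7 had a mean of 7.67, and 452 bases of its exons are shared with ENSG00000167774 on the same strand. The part of read assignment in these low values was not tested. The lowest members above the floor were NDUFA13 (mean 57.1), UQCRHL (61.0) and NDUFB8 (67.9). Over all members, exon bases are shared with an opposite-strand gene in 29 and with a same-strand gene in 23, and 35 share none.

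Around the complexes, the succinate dehydrogenase genes of complex II gave 0 calls among 4. SDHA was lower in all low-glucose libraries (-0.26 ± 0.10, adjusted p = 0.0759). CYCS, which encodes cytochrome c, and ATP5IF1, the inhibitor of ATP synthase, did not pass either (-0.17 ± 0.08 and -0.19 ± 0.17).

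Assembly factors build the complexes and are not part of them. Over all complexes, 8 of 52 rose and 7 fell, a share near that of all genes tested (14.7% higher and 16.2% lower) and under that at a mean of at least 20 (18.7% and 24%). The counts were 9 and 11 without av2, 11 and 7 without av3, and from 4 to 5 in each direction without any of the other libraries. They were 2 and 3 without a trend in the variance model, 10 and 4 under library size and 7 and 12 with the length trend removed. For complex III, 3 of 8 rose and 1 fell. UQCC6, an assembly factor of complex III, had 1469.7, 1298 and 1462 in control and 3224, 3033 and 2994 in low glucose, a rise of 1.13 ± 0.08 (limma adjusted p = 1.87e-07), and it passed in all 17 other fits. LYRM7, the chaperone that hands the Rieske protein to the complex, fell by 0.31 ± 0.10 (adjusted p = 0.0265), with an adjusted p of 0.0569 to 0.113 without av1, av7, av8 or av9.

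For complex IV, 2 of 23 assembly factors rose and 3 fell. SCO1, which delivers copper to the oxidase, had 1041, 1031 and 929 in control and 720.5, 679.6 and 653 in low glucose and fell by 0.55 ± 0.08 (limma adjusted p = 0.000175), while COX19, also of the copper pathway, rose by 0.41 ± 0.10 (adjusted p = 0.00626). For complex I, 3 of 16 rose and 1 fell, with NDUFAF3 at 0.60 ± 0.14 and ACAD9 at -0.35 ± 0.08. For complex V, 0 of 5 rose and 2 fell, TMEM70, which serves the c ring, by 0.59 ± 0.18 and ATPAF1, which binds the beta subunit, by 0.26 ± 0.08. TMEM70 was at 300.4, 187 and 366 in control and 183, 189 and 176 in low glucose, so that av2 lay within the low-glucose range, and its adjusted p was 0.0244 with all libraries and 0.0758 to 0.118 without any of av1, av3, av7, av8 and av9. The adjusted p of ATPAF1 was 0.0180 with all libraries and 0.0642 to 0.0894 without av1, av7 or av8.

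Of 9 regulators of OXPHOS genes, nuclear or mitochondrial, 8 had enough reads for a test. Of these, 1 rose while 5 fell, beside 14.7% of all genes tested higher and 16.2% lower (18.7% and 24% at a mean of at least 20). ESRRA, a nuclear receptor that acts on energy genes, had 776, 759 and 826 in control and 1157, 1122 and 1084 in low glucose and rose by 0.51 ± 0.08 (limma adjusted p = 0.000177). TFAM, which packs and transcribes mitochondrial DNA, had 1423, 1473 and 1359.9 against 905, 902 and 959 and fell by 0.62 ± 0.08 (adjusted p = 2.71e-05). NRF1, the factor whose motif was searched in the promoters, had 280.3, 309.9 and 269 against 197, 211 and 167 and fell by 0.58 ± 0.12 (adjusted p = 0.00180). These 3 passed in all 17 other fits. PPRC1, PPARGC1B and YY1 fell by 0.39, 0.47 and 0.27, and the coactivator gene PPARGC1A had no read in any library. The calls of PPARGC1B and YY1 were lost without av1, av7, av8 or av9, which left 3 of 8 lower. The count of lower genes was also 3 under library size and without a trend in the variance model.

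The partner subunits encoded in mitochondrial DNA went one way: 11 of 13 rose and none fell, with a median fold change of 0.45 (log2), beside 14.7% of all genes tested called higher (18.7% at a mean of at least 20). All 13 rose without av2, 6 or 7 without any 1 of the other libraries, 6 with the length trend removed and 4 without a trend in the variance model. The highest were MT-ND4 of complex I (1.18 ± 0.14) and MT-CO1 of complex IV (1.03 ± 0.14). By complex, 6 of 7 rose for complex I, 1 of 1 for complex III, 3 of 3 for complex IV and 1 of 2 for complex V. Among nuclear members the corresponding counts were 2 of 35, 0 of 10, 2 of 12 and 2 of 18. The difference between the genomes was not tested as such.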

How the data were processed

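RNA was measured by strand-specific sequencing (NEBNext Ultra II Directional kit, 150 bp paired-end, NovaSeq) of 3 control and 3 low-glucose cultures. Per the labels and methods, the authors trimmed reads with Trim Galore and aligned them with STAR 2.7.0e to hg38. The study's software list names RSEM without its step. Which tool counted the reads, its strand setting and the annotation were not given in the sources used here. The values deposited by the authors are a normalized signal, gene counts divided by 1 size factor a library. They were whole multiples of 1 read for 100% of values (relative tolerance 0.0001), so reads were recovered; if RSEM made the counts, these are estimates rounded to whole numbers. Recomputed DESeq2 median-of-ratios factors over 17906 genes matched the deposited ones at a ratio of 1.

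The labels name the columns of the low-glucose replicates 1 and 2. The other columns were set to groups by their names and carry no replicate number. Column use was complete, with 0 left out.

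Genes with a mean of at least 1 (21101) were tested on log2(value + 1) with limma 3.58.1 in R 4.3.3 (eBayes with trend, two-sided, Benjamini-Hochberg, threshold 0.05). The script was tested on simulated data. Gene models were from Gencode 44 (99.4% of identifiers matched). The members and lists were chosen with earlier results of these data known. Per-library values are given for the extremes past the threshold in each complex, the core, F1 and c ring subunits, COX4I1, COX5A, COX5B, the complex III core and isoform pairs with reads, and, of each pathway list, for the extremes past the threshold. NDUFA11, NDUFA13, NDUFS5, UQCR10, UQCR11, COX7B and the c ring shares were picked after their values were seen. The values of 1 member are not reported here, and it stays in the fits and counts. Alternatives were library size, TMM factors, quantile normalization, a pseudocount of 0.1, no filter, a mean of at least 20, no variance trend, edgeR 4.0.16 and DESeq2 1.42.0 on recovered reads, loess removal (span 0.3) of length or GC trends, and each library left out. p-values rest on the spread between these cultures, which limma moderated toward a trend over all genes tested.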

Additional observations from a re-analysis of the deposited data

How the results depend on the processing

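Of 1080 refits of 64 named genes, 922 kept direction and call or moved by less than the standard error, 79 lost a call and 62 gained one. One turned direction with a call, ATP5PF, at 0.01 with all libraries and -0.27 without av2 (limma adjusted p = 0.0114), the lowest of its values with 1 library left out, which reached 0.22 without av3. In 16, a gene that passed in neither fit turned direction by more than its standard error. The count of members past the threshold was 11, and became 17 under library size, 19 after quantile normalization, 3 without a variance trend and 21 with the length trend removed, and it ran from 4 (without av8) to 32 (without av3) when 1 library was left out. For complex I (3) it was 7 under library size, 7 after quantile normalization, 6 with a mean of at least 20, 5 in edgeR, 8 with the length trend removed and 5 with the GC trend removed, and 1 to 13 with a library left out. For complex III (1) it was 2 under library size, quantile normalization and edgeR, 0 without a variance trend, 5 with the length trend removed and 3 with the GC trend removed, and 1 to 4 with a library left out. For complex IV (2) it was 5 under library size, 7 after quantile normalization and 1 without a variance trend, and 2 to 8 with a library left out. For complex V (5) it was 3 under library size and quantile normalization and 0 without a variance trend, and 0 to 10 with a library left out. Leaving out 1 library gave medians of -0.09 to 0.15 for complex I, -0.17 to 0.03 for complex III, 0.05 to 0.44 for complex IV and -0.19 to 0.26 for complex V. The main fit called 30.9% of the 21101 genes tested, edgeR 42.8% of 15322 and DESeq2 19.3% of 28454. The DESeq2 share counts genes without an adjusted p as not passing. The cause of these shifts was not tested. No paired analysis was possible because the labels give a replicate number for only 2 of the 6 columns, both low glucose. Members with few reads, such as NDUFB8 (427 in all), also carry counting error.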
